A study of Mus musculus with 12 samples.

Results

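The immunoglobulin light chain variable (V) segments are the interchangeable exons that encode most of the antigen-binding part of the kappa and lambda chains. The members described here were selected on their counts, as the rows with a symbol beginning Igkv or Iglv whose counts summed over the 12 libraries reached 120. Of 163 such rows among 46983 genes in the table, 114 met the rule, 111 of them kappa segments in 19 family numbers and 3 of them lambda segments. RNA of bone marrow B cells, taken with magnetic beads, was sequenced from 4 groups of 3 libraries: WT cells and cells labelled as Hif1a knockout (KO), each held in normoxia or in hypoxia. Hif1a encodes the oxygen-regulated subunit of the transcription factor HIF-1. In the KO mice, floxed Hif1a is cut by Mb1 cre, a Cre recombinase inserted in Cd79a and expressed from the earliest B cell stages, so that 1 Cd79a allele also carries the insertion. The controls are described in the study's methods as littermates, either without Cre or with Cre and no floxed allele, and which of them gave the WT libraries is not given in the sources used here. No age or sex is given in the labels used here, and separate mice per library are stated by no label. Every p-value then measures the spread between these libraries, which may be technical in part. Y-linked reads, given below, were present in WT replicates 1 and 2 and absent from WT replicate 3. The WT libraries thus did not all come from the same pool of cells.

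A B cell makes its light chain by joining a V segment to a short joining (J) segment, which is then spliced to a constant (C) exon. In the mouse the kappa locus is usually rearranged first and holds a long array of V segments in both orientations, and the small lambda locus is used by a minority of cells. A cell that carries an unsuitable kappa chain can rearrange again, to another V segment or to lambda, a process called receptor editing. Kappa symbols give the family number before the hyphen and, after it, the place in the array counted from the J end. RNA counts on a V segment add up the cells that use it, the RNA made per cell and any transcript of the unrearranged segment. In bulk libraries fewer cells of a kind and less RNA per cell cannot be told apart.

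The germline 3′ ends of the segments on which the results turn are shown first, because this stretch starts the third complementarity-determining region and shows how little separates neighbours that can share reads. They were read 5′ to 3′ from the GENCODE transcripts of build GRCm38, and the capitals mark the codon of the conserved cysteine that precedes that region.
Iglv1: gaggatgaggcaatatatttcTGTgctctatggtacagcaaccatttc
Iglv2: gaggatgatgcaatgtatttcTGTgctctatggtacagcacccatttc
Iglv3: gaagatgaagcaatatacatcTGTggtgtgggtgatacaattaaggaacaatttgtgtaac
Igkv17-127: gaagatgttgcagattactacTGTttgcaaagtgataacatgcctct
Igkv17-121: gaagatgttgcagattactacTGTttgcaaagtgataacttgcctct
Igkv1-117: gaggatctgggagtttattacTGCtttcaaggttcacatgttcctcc
Igkv1-110: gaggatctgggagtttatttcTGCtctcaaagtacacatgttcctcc
Igkv1-135: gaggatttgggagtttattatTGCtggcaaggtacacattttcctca
Igkv1-132: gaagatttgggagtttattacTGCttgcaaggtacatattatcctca
Igkv14-126: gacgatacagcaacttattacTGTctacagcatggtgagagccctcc
Igkv10-96: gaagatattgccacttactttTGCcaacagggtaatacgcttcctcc

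Positions in these ends were counted from 1 at the first base shown. Iglv1 and Iglv2 differed by G9T, A15G and A41C, with the Iglv1 base named first, and were 96.7% identical over 366 aligned bases. Iglv3 was 70.8% identical to Iglv1 over 335 bases. Igkv17-127 and Igkv17-121 differed in the stretch by A40T alone and were 97.5% identical over 359 bases. Igkv1-117 and Igkv1-110 differed by A20T, T26C, G31A and T34A and were 97.5% identical over 401 bases. Igkv1-135 and Igkv1-132 differed by G3A, T21C, G26T, C37T and T41A. Over the 114 members the median identity to the most similar segment was 94.5%, and 56 members had a neighbour above 95%. All 50-base windows were unique among these segments for 25 members, and fewer than 50% were for 17. The split of counts within such pairs is uncertain, since the treatment of reads that match several segments is not given in the sources used here.

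The kappa members lay on chromosome 6 between 18.4 kb and 3112 kb upstream of Igkj1, the first kappa J segment, with 44 in the orientation of the J segments and 67 in the opposite one. The 3 lambda members lay on chromosome 16, at chr16:19085017-19085500, chr16:19241207-19241690 and chr16:19260401-19260859, all on the minus strand. By annotation 99 members were functional genes and 15 were pseudogenes. Of the 49 rows below the threshold, 45 were pseudogenes and 4 had no count in any library. The members just inside the threshold were Igkv13-78-1 with 138 summed counts, Igkv1-115 with 166 and Igkv4-62 with 170. Just outside it were Igkv8-26 with 106, Igkv15-97 with 105 and Igkv13-87 with 90.

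Total counts ran from 27629175 to 36880082 per library, and the members took 0.137% to 0.164% of them. The 7 B cell markers, none at 0 in any group, summed to 6943 to 8059 counts per 1000000 (CPM) in WT normoxia and 5906 to 6733 CPM in WT hypoxia, and to 6198 to 6816 and 5250 to 5633 CPM in the KO groups, so that they were lower in hypoxia without overlap in both genotypes. Markers of other cells were present as well: the 8 neutrophil markers summed to 1850 to 3770 CPM (WT) and 872 to 2912 CPM (KO) in the normoxia libraries, and to 2768 to 4962 CPM (WT) and 2215 to 3154 CPM (KO) under hypoxia. The 5 T cell markers summed to 187 to 247 and 207 to 225 CPM in the WT and KO normoxia libraries, and to 64.6 to 82.1 and 50.7 to 59.97 in the hypoxia libraries. The 5 erythroid markers summed to 173 to 291 and 72.0 to 308 CPM in WT normoxia and hypoxia and to 148 to 2568 and 154 to 637 CPM in KO, with the highest sum in KO normoxia 1. No listed marker of these cells was at 0 in any group, and the part of all these cells in the hypoxia differences below was not tested. Cd79a, a signalling chain of the B cell receptor and the site of the Cre insertion, had log2 differences between KO and WT of -0.93 under hypoxia and -1.02 under normoxia (edgeR adjusted p = 0.000169 and 0.000984). The Hif1a difference was 0.46 under hypoxia (edgeR adjusted p = 0.0132), but a count over the whole gene includes the exons that remain after a deletion and does not check the label. Reads on Y-linked genes were counted in WT replicates 1 and 2 of both conditions (8626 to 11043) and in KO hypoxia replicate 1 (1507), and the other 7 libraries had 0, so counts of calls are also given without these 5 libraries.

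Levels between segments were compared as CPM per kb of exon. Averaged over the 12 libraries, Iglv1 stood first at 574 CPM per kb, followed by Igkv1-135 at 218 and Iglv3 at 211. Igkv1-117 had 155 CPM per kb, Iglv2 148, Igkv17-127 128, Igkv17-121 108 and Igkv10-96 105. Igkv9-120 at 95.3 and Igkv6-15 at 90.4 completed the 10 with most counts. The lambda locus thus had 3 of the 5 leading places with 3 segments, while the kappa counts were spread widely. The effective number of kappa segments, the exponential of the Shannon entropy of their shares, was 62.7, 61.9 and 65.8 in WT normoxia and 60.1, 62.1 and 62.0 in WT hypoxia. In KO it was 64.4, 63.1 and 65.6 in normoxia and 64.4, 62.6 and 63.2 in hypoxia, and the groups overlapped within each genotype. Between genotypes they overlapped in normoxia, while in hypoxia every KO library was above every WT library, by little. The 10 leading kappa segments of a library took 35.3% to 40.9% of its kappa V counts. All 111 kappa members had counts in every library, the lowest member count in a library being 3.

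**Figure D1:**
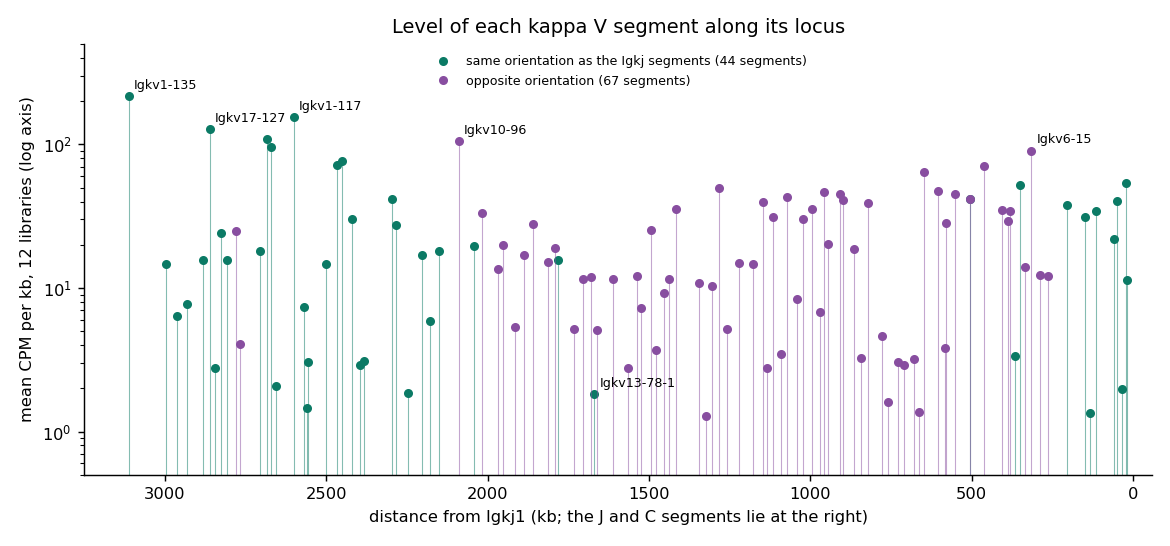
Each point is 1 of the 111 kappa V segments, placed by its distance from Igkj1 in kb and by its mean CPM per kb over the 12 libraries on a log axis, with the colour giving its orientation. Igkv1-135, at the far end, stood highest at 218 CPM per kb, and lower segments lay beside high ones throughout the array.

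High usage lay at both ends of the kappa array. In intervals of 500 kb from Igkj1, the nearest held 19 members and 19.4% of the kappa V counts, and the next 22 members and 18.1%. The intervals starting at 1000 and 1500 kb held 19 and 17 members with 11.7% and 6.503%. Those starting at 2000 and 2500 kb held 14 and 19 members with 15.03% and 21.6%, and Igkv1-135 alone beyond 3000 kb took 7.74%. Beyond 2000 kb, 30 of 34 members had the orientation of the J segments, against 14 of 77 nearer to them, so that distance and orientation cannot be told apart there. The 15 pseudogenes took 1.72% to 2.37% of kappa V counts.

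By family number, Igkv1 held 10 members and Igkv4 held 31. The Igkv1 share of kappa V counts was 19.8, 19.6 and 16.95% in WT normoxia and 20.0, 17.4 and 18.99% in WT hypoxia. In KO it was 17.2, 19.9 and 16.8% in normoxia and 19.3, 19.3 and 18.9% in hypoxia, so all 4 groups overlapped. The leading member Igkv1-135 made up 41.5% of the counts of its family, whereas Igkv4-59 led Igkv4 with 10.5%. The other large families were Igkv6 (9 members, 10.99% to 13.2% of kappa V counts over the libraries, led by Igkv6-15), Igkv8 (9 members, 7.92% to 8.80%, led by Igkv8-30) and Igkv3 (9 members, 6.13% to 8.73%, led by Igkv3-2). Igkv12, led by Igkv12-44, took 5.04% to 5.58%, and Igkv5, led by Igkv5-43, 3.98% to 5.22%. Igkv14, led by Igkv14-111 with 58.3% of its counts, took 3.68% to 4.52%. The small families were Igkv2 (led by Igkv2-109), Igkv11 (Igkv11-125), Igkv13 (Igkv13-85), Igkv15 (Igkv15-103), Igkv16 (Igkv16-104), Igkv18 (Igkv18-36), Igkv20 (Igkv20-101-2) and Igkv7 (Igkv7-33), none above 2.16% in any library.

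Several family shares stood apart between groups, picked here after their values were seen and given with no test. With 3 libraries per group, full separation readily arises where the groups do not differ. How often it arose over all genes was not counted. Shares within a library sum to 100, so a rise of 1 family lowers the others. The Igkv4 share was 15.7, 15.3 and 16.1% in WT normoxia and 13.8, 14.7 and 14.5% in WT hypoxia. The KO libraries had 16.4, 16.8 and 16.8% in normoxia and 15.9, 16.1 and 15.7% in hypoxia. It was thus lower in hypoxia in both genotypes and higher in KO in both conditions, without overlap of the libraries in any of these 4 pairs of groups. The Igkv17 share, from Igkv17-127 and Igkv17-121, was 6.64, 7.07 and 6.46% in WT normoxia and 9.13, 8.93 and 7.66% in WT hypoxia. The KO libraries had 6.99, 6.88 and 6.77% in normoxia and 8.13, 9.06 and 8.04% in hypoxia, higher in hypoxia in both genotypes without overlap. The Igkv10 share, led by Igkv10-96, was 4.95, 5.08 and 4.70% in WT hypoxia and 4.44, 4.30 and 4.13% in KO hypoxia, with every KO library below every WT library. The Igkv9 share, led by Igkv9-120, was 4.35, 4.48 and 4.44% in WT hypoxia and 4.13, 4.22 and 4.15% in KO hypoxia, again lower in KO without overlap. The normoxia shares of Igkv9 were 4.56, 4.81 and 4.49% (WT) and 4.33, 4.50 and 4.92% (KO), above hypoxia in both genotypes without overlap, though in WT by little. The Igkv13 share was likewise lower in hypoxia, with 1.13, 1.48 and 1.17% against 1.13, 1.01 and 0.989% in WT and 1.24, 1.11 and 1.21% against 0.989, 1.02 and 0.909% in KO, and WT normoxia 1 exceeded WT hypoxia 1 by very little. Igkv11 was higher in KO in both conditions, with 0.573, 0.503 and 0.675% in WT and 0.772, 0.768 and 0.695% in KO under normoxia and 0.560, 0.700 and 0.659% and 0.811, 0.780 and 0.830% under hypoxia. The Igkv14 share was 3.94, 3.89 and 4.15% in WT normoxia and 4.32, 4.52 and 4.25% in WT hypoxia, higher without overlap, while 4.02, 3.79 and 3.68% and 4.29, 4.14 and 3.96% in KO overlapped. Igkv7, Igkv8, Igkv12, Igkv16, Igkv18 and Igkv20 stood apart in 1 or 2 of the 4 pairs of groups, and Igkv1, Igkv2, Igkv3, Igkv5, Igkv6 and Igkv15 in none. Pseudogenes took a larger share of kappa V counts in KO under both conditions, with every KO library above every WT library. The hypoxia libraries had 1.80, 1.76 and 1.74% (WT) against 2.37, 2.17 and 2.30% (KO). The normoxia libraries had 1.74, 1.72 and 2.04% (WT) against 2.17, 2.11 and 2.15% (KO), where the gap was small.

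**Figure D2:**
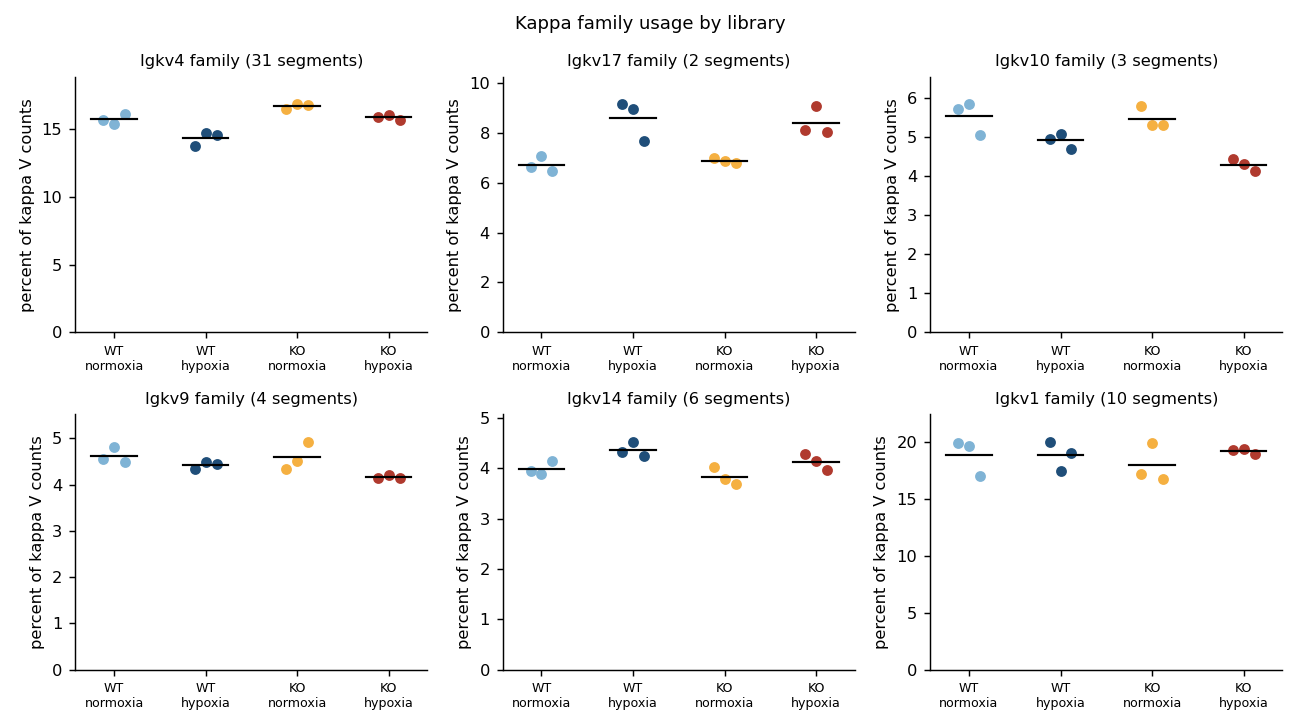
The share of 6 kappa families in the kappa V counts of each library is plotted by group, with a point per library and a line at the group mean. Igkv4 (31 members) was lower and Igkv17 (2 members) higher in the hypoxia libraries of both genotypes, while Igkv1 (10 members) overlapped between all groups.

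Orientation shares also stood apart between the oxygen conditions, again with 3 libraries per group and no test. The 44 kappa members in the orientation of the J segments took 50.5, 49.0 and 49.4% of kappa V counts in WT normoxia and 53.4, 51.2 and 51.8% in WT hypoxia. In KO they took 48.4, 49.5 and 48.0% in normoxia and 52.3, 51.5 and 51.9% in hypoxia. The hypoxia libraries were higher in both genotypes, without overlap. The 44 include both Igkv17 members, so this difference is not separate from the Igkv17 rise given above. The interval from 1500 to 2000 kb from Igkj1 had shares of 6.81, 7.68 and 6.35% (WT normoxia) and 5.63, 6.03 and 5.53% (WT hypoxia). The KO shares there were 7.15, 7.14 and 7.19% and 6.25, 6.09 and 6.19%, and hypoxia was lower in both genotypes. The interval from 2500 to 3000 kb, which holds both Igkv17 members, took 20.6, 21.4 and 19.9% in WT normoxia and 23.8, 23.4 and 21.6% in WT hypoxia. Its KO shares were 20.0, 21.3 and 20.2% in normoxia and 22.1, 22.8 and 21.8% in hypoxia, and the hypoxia libraries were higher in both genotypes without overlap.

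The first comparison asks which segments changed in WT cells under hypoxia. Of the 114 members, 9 passed an adjusted p of 0.05 in the quasi-likelihood test of edgeR, 7 higher and 2 lower, or 7.89%. Over all 17506 genes tested the test called 27.8%, with 11.4% higher and 16.3% lower. This fit, planned before the pairing was checked, leaves out the pairing of the WT libraries. The fit that holds it is given below. The median log2 fold change of the members was 0.06, beside 0.01 over all genes tested. The called segments that rose were the Igkv17 pair, Igkv14-126, Igkv4-51, Igkv3-10 and the pseudogenes Igkv14-118-2 and Igkv2-107, and those that fell were Igkv1-88 and the pseudogene Igkv13-78-1. Under hypoxia 5 of the 7 that rose lay beyond 2000 kb from Igkj1, where 34 of the 111 kappa members lie. These 5 include the near-identical Igkv17 pair, which can share reads.

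Igkv17-121 was at 32.8, 37.98 and 31.7 CPM in WT normoxia and 45.9, 52.6 and 42.7 in WT hypoxia. Its twin Igkv17-127 was at 38.1, 45.5 and 38.5 CPM in WT normoxia and 54.8, 61.9 and 44.4 in WT hypoxia. The hypoxia libraries were higher without overlap for Igkv17-121, while Igkv17-127 overlapped because WT hypoxia 3 lay below WT normoxia 2, although each of its 3 same-numbered pairs was higher in hypoxia. The log2 fold changes were 0.46 ± 0.12 (SE) and 0.40 ± 0.14 (edgeR adjusted p = 0.014 and 0.0443). In KO the same segments had log2 fold changes of 0.27 ± 0.12 and 0.38 ± 0.14 and were not called (edgeR adjusted p = 0.117 and 0.052), but Igkv17-127 was called by DESeq2 (adjusted p = 0.0359) and by edgeR with RLE scaling (adjusted p = 0.0445). The difference between the genotypes was not called for either (edgeR adjusted p = 0.8 and 0.986). The Igkv17-121 call was lost without any one of WT normoxia 1 and WT hypoxia 2. The Igkv17-127 call was lost without any one of WT normoxia 1, WT normoxia 3, WT hypoxia 1, WT hypoxia 2, KO normoxia 1, KO normoxia 2, KO normoxia 3 and KO hypoxia 1.

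Igkv14-126 was at 7.63, 8.48 and 7.06 CPM in WT normoxia and 10.4, 12.4 and 9.44 in WT hypoxia, with a log2 fold change of 0.47 ± 0.14 (edgeR adjusted p = 0.0252). Igkv4-51, the only called Igkv4 segment of this comparison, was at 2.35, 2.64 and 2.06 CPM in WT normoxia and 3.17, 4.22 and 3.99 in WT hypoxia, with a log2 fold change of 0.69 ± 0.21 (edgeR adjusted p = 0.023). Neither segment overlapped between these groups, and both were also called in the KO response described next. Igkv3-10, close to the J segments, was at 9.15, 9.88 and 11.5 CPM in WT normoxia and 11.2, 14.8 and 13.5 in WT hypoxia, overlapped though each same-numbered pair was higher in hypoxia, and had a log2 fold change of 0.37 ± 0.13 (edgeR adjusted p = 0.0486). Igkv1-88 fell from 11.6, 16.8 and 9.45 CPM to 7.997, 9.50 and 7.62, a log2 fold change of -0.59 ± 0.19 (edgeR adjusted p = 0.0308); its groups overlapped only in that WT hypoxia 2 was slightly above WT normoxia 3, and each same-numbered pair was lower in hypoxia. The Igkv14-126 call was lost without any one of WT normoxia 1, WT normoxia 3, WT hypoxia 1 and WT hypoxia 2, that of Igkv4-51 without any one of WT normoxia 1, WT normoxia 3, WT hypoxia 2 and WT hypoxia 3, and that of Igkv1-88 without any one of WT normoxia 2, WT hypoxia 1 and WT hypoxia 3. The Igkv3-10 call was lost without any one of WT normoxia 1, WT normoxia 2, WT hypoxia 2, WT hypoxia 3, KO normoxia 1, KO normoxia 2, KO normoxia 3, KO hypoxia 1, KO hypoxia 2 and KO hypoxia 3.

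The 3 pseudogenes had few counts. Igkv2-107 had 8, 22 and 25 counts in WT normoxia and 54, 50 and 29 in WT hypoxia, with a log2 fold change of 1.42 ± 0.46 (edgeR adjusted p = 0.0348). Igkv14-118-2 had 8, 10 and 17 counts in WT normoxia and 27, 17 and 25 in WT hypoxia, with a log2 fold change of 1.10 ± 0.36 (edgeR adjusted p = 0.0342, and 0.0573 with the replicate number as a block). Igkv13-78-1, the member nearest the count threshold, had 12, 16 and 22 counts in WT normoxia and 3, 4 and 8 in WT hypoxia, with a log2 fold change of -1.59 ± 0.48 (edgeR adjusted p = 0.0256). Hypoxia and normoxia libraries did not overlap in CPM for any of the 3, and a pseudogene makes no working chain. The calls were lost without any one of WT normoxia 1, WT hypoxia 1 and WT hypoxia 2 for Igkv2-107, without any one of WT normoxia 1, WT normoxia 2, WT hypoxia 1 and WT hypoxia 3 for Igkv14-118-2 and without any one of WT normoxia 2, WT normoxia 3, WT hypoxia 1 and WT hypoxia 2 for Igkv13-78-1. With the Y-linked libraries left out, which leaves 1 WT library per condition that is assumed to vary like the other groups, edgeR called 0 members and 5 had an unadjusted p below 0.05. Leaving out single libraries gave 2 (without WT normoxia 1) to 9 called members, with 3 without WT hypoxia 2, 4 without WT hypoxia 1 and 5 without WT normoxia 2. The shares of all genes called with libraries left out are not given here.

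Over the members alone, same-numbered WT libraries did not deviate together (r = 0.04, -0.03 and -0.08). Over all genes tested they did, so the WT response was also fitted with the replicate number as a block. That fit of edgeR called 12 members, 8 of the 9 above and 4 more. Igkv3-2, the leader of its family, was at 19.1, 18.9 and 20.3 CPM in WT normoxia and 21.7, 27.2 and 22.4 in WT hypoxia, with a blocked log2 fold change of 0.28 (edgeR adjusted p = 0.0443 with the block, 0.0613 without), and DESeq2 called it too (adjusted p = 0.0387). Iglv2 had a blocked log2 fold change of -0.35 (edgeR adjusted p = 0.0441 with the block, 0.223 without). Igkv18-36 had 39, 40 and 56 counts in WT normoxia and 28, 13 and 26 in WT hypoxia, with -0.93 (edgeR adjusted p = 0.0371 and 0.0529). The pseudogene Igkv14-126-1 had 12, 24 and 26 counts and 35, 38 and 36 counts, with 0.97 (edgeR adjusted p = 0.0482 and 0.0619). Igkv14-111, which holds most counts of the Igkv14 family, was not called in WT (0.09 ± 0.12, edgeR adjusted p = 0.617) or KO (-0.02 ± 0.12, edgeR adjusted p = 0.916). Markers of B cell stages moved as well. The 9 pro-B and pre-B cell markers summed to 1660 to 1959 CPM in WT normoxia and 2032 to 2194 CPM in WT hypoxia. The hypoxia sums were higher without overlap, but members of the list went both ways. Rag1 rose from a mean of 840 to 1190 CPM, while Igll1, Vpreb1 and Vpreb2 fell. Their log2 fold changes were 0.50, -0.63, -0.77 and -1.13 (edgeR adjusted p = 0.0164, 0.0247, 0.0143 and 0.0294). Rag2 (0.25) and Dntt (0.39) were not called. The immature and mature B cell markers, 7 of 8 in the table, summed to 1520 to 2042 and 1248 to 1584 CPM, which overlapped. The part of these markers in the segment changes was not tested.

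**Figure D3:**
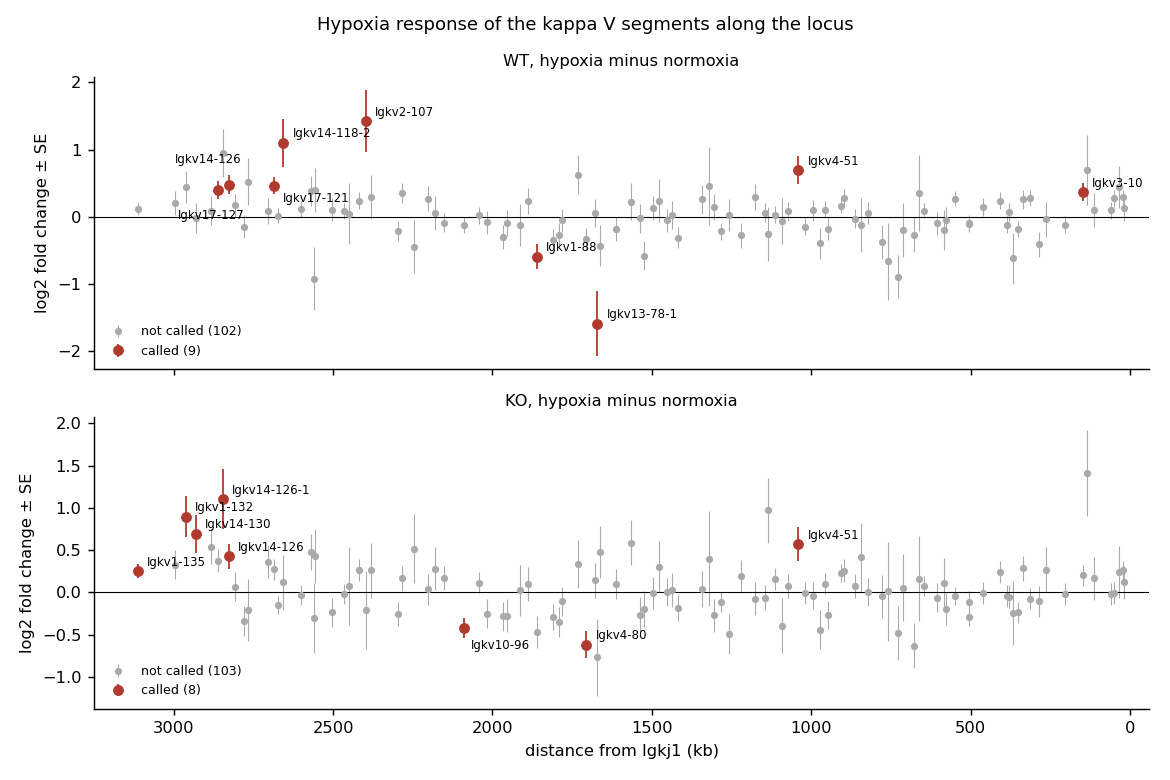
The log2 fold change of each of the 111 kappa segments with its standard error is plotted against distance from Igkj1, above for WT and below for KO, with called segments in red and named. In WT 9 and in KO 8 segments were called, in the fit without a replicate block. Of those that rose, 5 of 7 and 5 of 6 lay beyond 2000 kb, where 34 of the 111 segments lie.

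The same question was asked of KO cells. Here 8 of the 114 members were called, 6 higher and 2 lower, or 7.02%, beside 30.3% of all genes tested, 14.5% higher and 15.7% lower. The members' median log2 fold change was 0.04, as was that of all genes tested. Those that rose were Igkv14-126, Igkv14-130, Igkv14-126-1, Igkv1-132, Igkv1-135 and Igkv4-51, and those that fell were Igkv10-96 and Igkv4-80. The WT and KO calls shared Igkv14-126 and Igkv4-51. With the WT fit blocked by replicate number, Igkv14-126-1 was shared as well. The pro-B and pre-B cell markers summed to 1975 to 2174 CPM in KO normoxia and 2021 to 2435 CPM in KO hypoxia and overlapped. Within this list Igll1, Vpreb1 and Vpreb2 were called lower in KO hypoxia, and Rag1, Rag2 and Dntt were not called. The immature and mature B cell markers summed to 1426 to 1669 and 993 to 1259 CPM, lower in hypoxia without overlap. The part of these markers in the KO changes was not tested either.

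Igkv14-126 was at 6.89, 7.67 and 5.77 CPM in KO normoxia and 9.46, 9.16 and 8.72 CPM in KO hypoxia, and its log2 fold change of 0.43 ± 0.14 (edgeR adjusted p = 0.039) stood beside 0.47 in WT. Igkv4-51 was at 2.82, 3.19 and 2.49 CPM in KO normoxia and 4.58, 4.80 and 3.27 CPM in KO hypoxia, with a log2 fold change of 0.57 ± 0.20 (edgeR adjusted p = 0.0468). Neither overlapped between the KO groups. Igkv1-135, the kappa segment with the highest level, was at 87.0, 84.2 and 76.9 CPM in KO normoxia and 90.7, 105 and 99.6 CPM in KO hypoxia, a small rise of 0.25 ± 0.09 on the log2 scale (edgeR adjusted p = 0.0429) without overlap. Its neighbour Igkv1-132 was at 1.81, 1.91 and 1.31 CPM in KO normoxia and 2.63, 3.998 and 2.78 CPM in KO hypoxia, a log2 fold change of 0.90 ± 0.24 (edgeR adjusted p = 0.0134). The Igkv1-132 call was lost only without KO hypoxia 2 among the libraries left out one at a time, and that of Igkv1-135 without any one of WT normoxia 1, KO normoxia 2, KO normoxia 3, KO hypoxia 2 and KO hypoxia 3. The Igkv14-126 call was lost without any one of WT normoxia 1, KO normoxia 1, KO normoxia 3, KO hypoxia 1, KO hypoxia 2 and KO hypoxia 3, and that of Igkv4-51 without any one of WT normoxia 1, WT hypoxia 2, KO normoxia 1, KO normoxia 2, KO normoxia 3, KO hypoxia 1 and KO hypoxia 2.

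Igkv10-96 was at 43.0, 40.7 and 36.2 CPM in KO normoxia and 29.2, 33.8 and 26.9 CPM in KO hypoxia, lower without overlap, with a log2 fold change of -0.42 ± 0.12 (edgeR adjusted p = 0.0178). In WT it was at 42.9, 45.4 and 38.1 CPM in normoxia and 37.4, 44.8 and 34.5 in hypoxia, which overlapped, and the log2 fold change of -0.12 ± 0.12 was not called (edgeR adjusted p = 0.504). The difference between the genotypes was not called either (edgeR adjusted p = 0.6). Igkv4-80 was at 4.66, 4.65 and 3.94 CPM in KO normoxia and 3.21, 2.90 and 2.51 CPM in KO hypoxia, with a log2 fold change of -0.62 ± 0.16 (edgeR adjusted p = 0.0115). Igkv14-130 rose from 2.40, 2.08 and 1.76 to 3.27, 3.97 and 2.91 CPM, a log2 fold change of 0.70 ± 0.22 (edgeR adjusted p = 0.0312). The pseudogene Igkv14-126-1 had 32, 16 and 12 counts in KO normoxia and 42, 56 and 30 counts in KO hypoxia, with a log2 fold change of 1.11 ± 0.35 (edgeR adjusted p = 0.03). None of these 3 segments overlapped between the KO groups.

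These calls also rested on single libraries. They were lost without any one of KO normoxia 1, KO normoxia 2, KO hypoxia 1 and KO hypoxia 3 for Igkv10-96, without any one of KO normoxia 1, KO normoxia 2 and KO hypoxia 3 for Igkv4-80, without any one of KO normoxia 2, KO normoxia 3, KO hypoxia 1 and KO hypoxia 2 for Igkv14-130 and without any one of KO normoxia 2, KO normoxia 3, KO hypoxia 1 and KO hypoxia 2 for Igkv14-126-1. Called members numbered 2 without KO hypoxia 2, 3 without KO hypoxia 1 or KO normoxia 2, 4 without KO normoxia 1 or 3, and 5 without KO hypoxia 3 or WT normoxia 1. With the Y-linked libraries left out 5 members were called. With no filter on low counts 4 were called, 1 higher and 3 lower, instead of 6 higher and 2 lower. Shares of all genes called are not given for these settings either.

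**Figure D4:**
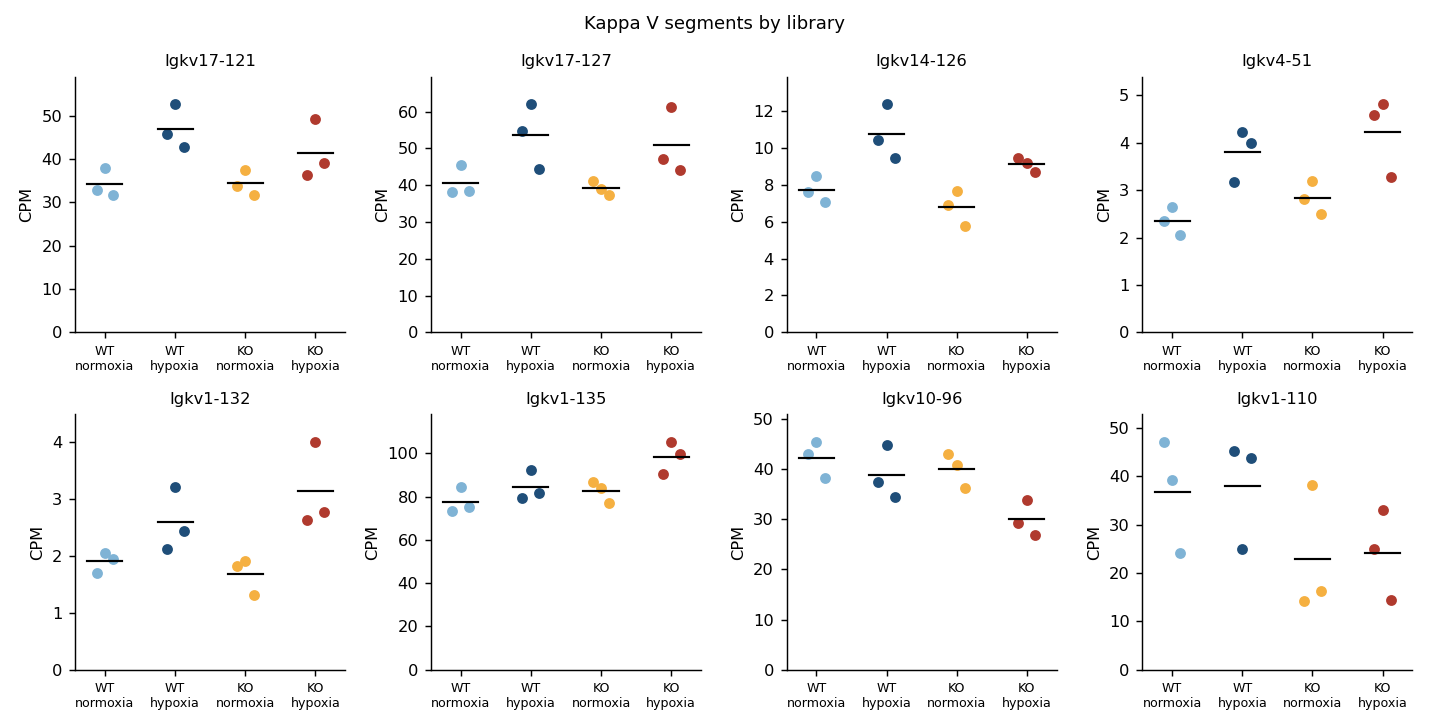
CPM in each library is plotted by group for 8 kappa segments, with a point per library and a line at the group mean. In WT the Igkv17 pair, Igkv14-126 and Igkv4-51 rose in hypoxia, Igkv10-96 was lowest in KO hypoxia at 29.2, 33.8 and 26.9 CPM, and Igkv1-110 spread from 14.2 to 47.2 CPM across all groups.

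The third comparison set KO against WT under hypoxia. Called by edgeR were 2 of the 114 members, both higher in KO, or 1.75%, beside 9.84% of all genes tested, 4.72% higher and 5.12% lower. Both were lambda segments, Iglv1 and Iglv2, and no kappa segment passed. DESeq2 also called Igkv10-96, lower in KO with a log2 difference of -0.37 (DESeq2 adjusted p = 0.0308, edgeR adjusted p = 0.0632). The median log2 difference of the members was 0.02 and that of all genes tested was -0.03. Iglv1 was at 163, 177 and 216 CPM in WT hypoxia and 274, 266 and 290.0 in KO hypoxia. Iglv2 was at 30.7, 36.99 and 53.2 CPM in WT hypoxia and 59.1, 58.6 and 76.5 in KO hypoxia. Every KO library was higher than every WT library for both segments, and WT hypoxia 3, the WT hypoxia library with no Y-linked reads, was the highest of its group for both. The log2 differences were 0.58 ± 0.11 for Iglv1 and 0.68 ± 0.18 for Iglv2 (edgeR adjusted p = 0.00681 and 0.0348). Iglv3, at 79.5, 73.8 and 84.0 CPM in WT hypoxia and 93.4, 83.2 and 99.9 in KO hypoxia, overlapped, had a difference of 0.22 ± 0.11 and was not called (edgeR adjusted p = 0.214).

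Under normoxia Iglv1 was at 190.4, 207 and 194 CPM in WT and 253, 202 and 259.8 in KO, which overlapped, with a log2 difference of 0.27 ± 0.11 (edgeR adjusted p = 0.499). Iglv2 was at 49.6, 49.3 and 51.6 CPM in WT and 61.1, 52.0 and 72.2 in KO, higher in KO without overlap, with a log2 difference of 0.30 ± 0.18 that was not called (edgeR adjusted p = 0.64). The interaction, which tests whether the KO difference depended on oxygen, was not called for Iglv1 (0.31 ± 0.16, edgeR adjusted p = 0.559) or Iglv2 (0.38 ± 0.26, edgeR adjusted p = 0.683). Nor did hypoxia move Iglv1 past the threshold within WT (-0.09 ± 0.11) or KO (0.22 ± 0.11). The Iglv1 call held without each single library in turn, with log2 differences of 0.52 to 0.73. The Iglv2 call was lost without any one of WT normoxia 1, WT hypoxia 1, WT hypoxia 2, KO hypoxia 1 and KO hypoxia 3. Without the Y-linked libraries the differences were 0.37 for Iglv1 and 0.35 for Iglv2, neither called (edgeR adjusted p = 0.387 and 0.612), with 1 WT hypoxia library left.

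**Figure D5:**
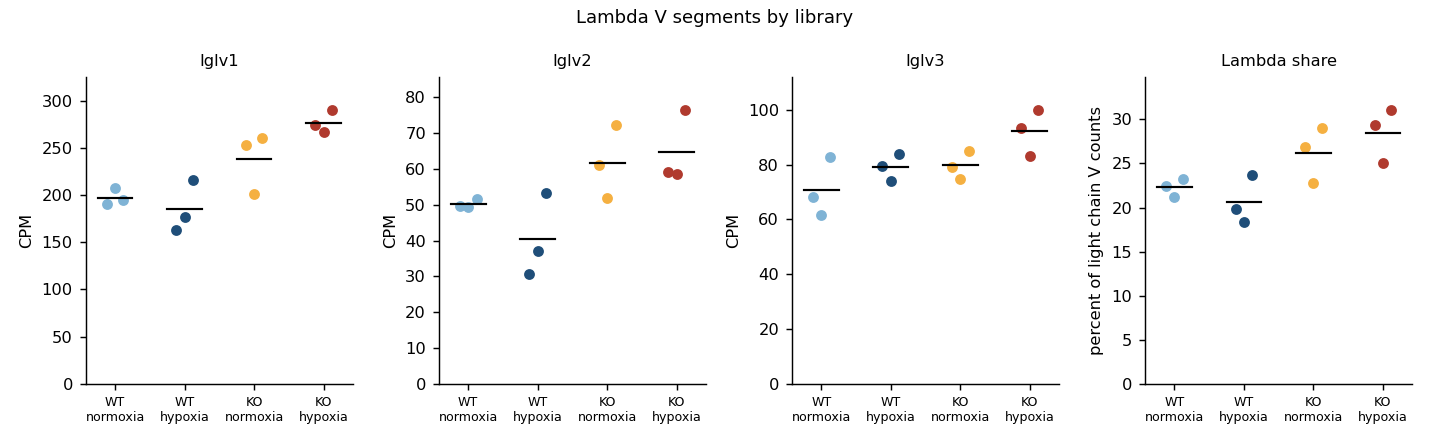
The first 3 panels give the CPM of Iglv1, Iglv2 and Iglv3 in each library by group and the fourth the lambda share of light chain V counts in percent, with a point per library and a line at the group mean. The KO hypoxia libraries stood above the WT hypoxia libraries for Iglv1 and Iglv2 and in the lambda share, and overlapped them for Iglv3.

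The lambda share of light chain V counts summed the same pattern. It was 22.4, 21.2 and 23.2% in WT normoxia and 19.8, 18.3 and 23.7% in WT hypoxia. In KO it was 26.8, 22.8 and 29.1% in normoxia and 29.3, 25.1 and 31.1% in hypoxia. Every KO hypoxia library was above every WT hypoxia library, while the normoxia groups overlapped. Divided by exon length, the share ran from 17.7% to 30.2%. Summed kappa V levels were 1103, 1282 and 1138 CPM in WT hypoxia and 1028, 1219 and 1035 CPM in KO hypoxia and overlapped, and summed lambda V levels were 273, 288 and 353 and 426, 408 and 466 CPM and did not. Within the lambda counts Iglv1 took 59.1% to 65.3% of a library, Iglv3 19.4% to 29.2% and Iglv2 11.3% to 17.3%.

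The constant exons were read beside the V segments. Iglc1, Iglc2 and Iglc3 together took 16.2, 16.7 and 19.3% of the light chain C counts in WT hypoxia and 21.5, 18.6 and 23.02% in KO hypoxia, which overlapped. None of the 3 was called between KO and WT under hypoxia, with log2 differences of 0.18 ± 0.16, 0.05 ± 0.16 and -0.02 ± 0.25 (edgeR adjusted p = 0.506, 0.883 and 0.968). The ratio of lambda V to lambda C counts was 1.04, 0.790 and 1.16 in WT hypoxia and 1.30, 1.22 and 1.42 in KO hypoxia, higher in KO without overlap. In WT normoxia it was 1.002, 0.680 and 1.15 and in KO normoxia 1.13, 1.02 and 1.19. The kappa V to Igkc ratio ran from 0.632 to 0.942, and WT normoxia 2 was the lowest library in both ratios. V and C exons differ in length, so only the ratios of different libraries are comparable.

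Other readings were set beside the Iglv1 difference. Iglv1 is the 1 member that overlaps another annotated gene, 2010309G21Rik on the other strand, and whether the counting used strand is not given in the sources used here. That gene had 114, 128 and 119 counts in WT hypoxia and 210, 167 and 215 in KO hypoxia, a log2 difference of 0.62 ± 0.16 (edgeR adjusted p = 0.0328), beside 4817, 5032 and 6546 and 8973, 8259 and 8883 counts of Iglv1. The 6 plasma cell markers summed to 510.1 to 557 CPM in WT hypoxia and 552 to 610.0 in KO hypoxia. The immature and mature B cell markers summed to 1248 to 1584 and 993 to 1259 CPM. The 6 monocyte markers summed to 1309 to 1974 and 765 to 1375 CPM, with no listed marker at 0 in either group for these lists. For each of these lists the WT and KO hypoxia sums overlapped. The 7 B cell markers summed to 5906 to 6733 CPM in WT hypoxia and 5250 to 5633 CPM in KO hypoxia. Every KO library was lower, but the list includes Cd79a, the site of the Cre insertion. Cd79a alone was at 1460 to 1637 CPM in WT hypoxia and 784 to 836 CPM in KO hypoxia. The lower sum is therefore not a measure of B cell content. The 9 pro-B and pre-B cell markers summed to 2032 to 2194 CPM in WT hypoxia and 2021 to 2435 CPM in KO hypoxia, which overlapped. Of this list, the surrogate light chain genes Igll1 and Vpreb1 were lower in KO, as was Dntt. Their log2 differences were -0.99 ± 0.19, -0.94 ± 0.20 and -0.73 ± 0.14 (edgeR adjusted p = 0.00839, 0.0151 and 0.00754). Vpreb2 (-0.84), Rag1 (0.18) and Rag2 (-0.001) were not called. The part of all these in the lambda difference was not tested.

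KO and WT under normoxia differed in 0 of the 114 members by edgeR, beside 0.0228% of all genes tested, and DESeq2 also called 0. At an unadjusted p below 0.05 there were 4 members, no more than that threshold alone would give over 114. Those with the smallest unadjusted p were the pseudogene Igkv14-118-2 (1.14 ± 0.35, unadjusted p = 0.00655), Igkv4-54 (0.83 ± 0.33, unadjusted p = 0.0264) and Iglv1 (0.27 ± 0.11, unadjusted p = 0.0282), in log2 units from edgeR, and none passed after adjustment over all genes. Igkv4-54 was at 0.615, 0.870 and 1.39 CPM in WT normoxia and 1.70, 1.87 and 1.59 in KO normoxia, without overlap.

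The interaction of genotype and oxygen was called for 0 of the 114 members by edgeR, beside 0.417% of all genes tested, with 0 by DESeq2. At an unadjusted p below 0.05 there were 3, again no more than that threshold alone would give. The members with the smallest unadjusted p were the pseudogene Igkv2-107 (-1.62 ± 0.65, unadjusted p = 0.0265), Igkv14-130 (0.71 ± 0.31, unadjusted p = 0.0416) and the pseudogene Igkv4-56 (1.23 ± 0.55, unadjusted p = 0.0441), again by edgeR. Igkv14-130 was at 2.60, 2.67 and 2.92 CPM in WT normoxia and 2.16, 2.43 and 3.53 in WT hypoxia, with a WT log2 fold change of -0.01 ± 0.22 beside 0.70 ± 0.22 in KO.

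Some segments varied widely over the 12 libraries, across groups as well as within them. The largest ratios of the highest library to the median of all 12 were those of Igkv3-9 (2.76), Igkv2-107 (2.42), Igkv14-126-1 (1.93), Igkv1-132 (1.91) and Igkv4-62 (1.83), all with 864 or fewer summed counts. Igkv2-107, Igkv14-126-1 and Igkv1-132 are among the hypoxia calls above. A pair of better counted segments, named after their values were seen, also spread widely. For Igkv1-110, the WT libraries had 47.2, 39.2 and 24.1 CPM in normoxia and 45.2, 25.03 and 43.8 CPM in hypoxia. Its KO libraries had 14.2, 38.3 and 16.3 CPM in normoxia and 24.97, 33.1 and 14.3 CPM in hypoxia, for an overall range of 3.33 times. Igkv1-117, nearly identical in sequence, ranged 1.45 times, from 51.2 to 74.4 CPM. Igkv3-7 was at 5.998 CPM in WT normoxia 2 and at 11.3 to 16.6 CPM in the other 11 libraries.

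Of 33 listed genes of the light chain and its assembly, 32 were tested and Iglj2 had no count. Under hypoxia 1 was called higher and 7 lower in WT, and 2 higher and 11 lower in KO, or 25% and 40.6% beside 27.8% and 30.3% of all genes tested. KO against WT gave 3 higher and 4 lower under hypoxia, or 21.9% beside 9.84%, and 1 lower, Cd79a, under normoxia. The hypoxia calls include Hif1a, the floxed gene, and Cd79a, the site of the Cre insertion. Both genes are altered in the KO mice by design, so the 21.9% is not a value for the other listed genes alone. The surrogate light chain genes, which pair with the heavy chain before a light chain is made, fell: Igll1 by 0.63 in WT and 1.21 in KO on the log2 scale (edgeR adjusted p = 0.0247 and 0.000586), and Vpreb1 by 0.77 and 1.18 (edgeR adjusted p = 0.0143 and 0.00114). Rag1, a subunit of the V(D)J recombinase, rose by 0.50 in WT (edgeR adjusted p = 0.0164) and had 0.32 in KO, not called (edgeR adjusted p = 0.099), while Rag2 was called in neither. Irf8, a B cell and myeloid transcription factor, fell by 0.63 and 0.79, and Jchain, which joins secreted antibody units, by 0.84 and 1.06 in WT and KO (edgeR adjusted p = 0.000151 and 2.16e-05, then 0.0188 and 0.00499). The kappa J segments Igkj1, Igkj3, Igkj4 and Igkj5 fell in KO, with log2 fold changes of -0.66, -0.69, -0.74 and -0.57 (edgeR adjusted p = 0.0342, 0.0173, 0.00304 and 0.0307), and Igkj2 had -0.60 and was not called (edgeR adjusted p = 0.0781).

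In WT the J segments Igkj1 to Igkj5 had -0.41, -0.26, -0.24, -0.32 and -0.09 and none was called (edgeR adjusted p = 0.182, 0.451, 0.389, 0.148 and 0.743), and the interaction was not called for any of the 5. Gm30211, a noncoding gene that overlaps the kappa J cluster and was added after its values were seen, fell by 0.88 in WT and 1.01 in KO (edgeR adjusted p = 7.66e-06 and 2.00e-06), and how reads in the overlap were counted is not given in the sources used here. Igkc, the kappa constant exon, was not called in either response (0.02 ± 0.17 and -0.05 ± 0.17). Among the lambda constant exons, Iglc3 rose by 0.95 in KO (edgeR adjusted p = 0.0166) and Iglc2 fell by 0.53 in WT (edgeR adjusted p = 0.0265), genes so alike that their split is uncertain. Between KO and WT under hypoxia, Irf4, a transcription factor of light chain rearrangement and plasma cells, was higher by 0.47 and Tcf3, which encodes the E2A proteins that bind kappa enhancers, by 0.30 (edgeR adjusted p = 0.00365 and 0.0382). For Dntt, which adds bases at V(D)J joints, the same difference was -0.73 (edgeR adjusted p = 0.00754).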

How the data were processed

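The authors deposited raw counts per Ensembl gene for 12 libraries in 1 table. The submitters' processing notes name CASAVA, Bowtie 0.12.2 and build mm10, and the sources used here do not give the gene counter, its annotation release or its handling of strand and of reads with several matches. Symbols were matched for 46488 of 46983 identifiers, and positions and sequences came from GENCODE M21 (GRCm38, the same assembly as mm10). The members and lists were chosen with earlier results of these data known.

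Counts were scaled by TMM and tested with edgeR 4.0.16 (R 4.3.3; robust quasi-likelihood F test, 4 group means, filterByExpr, Benjamini-Hochberg over the 17506 genes kept, adjusted p 0.05), and 29477 genes were filtered out. All 114 members were tested. CPM are counts per 1000000 of the TMM-scaled library. Usage, locus totals and evenness were described with no test. Named were the 10 members with most counts, all lambda members, the leader of each family, up to 6 called members per direction and comparison (where none, the 3 with the smallest unadjusted p), the 5 with the largest ratio of highest to median library, 3 segments on each side of the count threshold, and 33 context genes. On simulated counts for WT hypoxia against WT normoxia (17057 genes) the test recovered 14.6% of 1.5-fold and 75.3% of 2-fold changes. The simulation changed a far smaller share of genes than the real comparison called. It drew them from all genes tested and gave every gene the same spread. The recovery therefore does not carry over to the V segments. No 2 libraries of a group agreed within sampling noise. Replicate numbers were checked for pairing by correlating deviations from group means over all genes tested: same-numbered WT libraries gave r = 0.20, 0.36 and 0.43, so WT numbers were taken as pairs, and KO gave 0.18, -0.04 and 0.12, so KO numbers were not. Alternatives were DESeq2 1.42.0, RLE scaling, TMM without immunoglobulin and mitochondrial genes, other filters, a fold threshold of 1.5, fits of the compared groups alone, a replicate block and leaving out each library. The planned description of recombination signals and promoter octamers was not run because no genome sequence was used here.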

Additional observations from a re-analysis of the deposited data

How the results depend on the processing

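No segment called in a comparison changed its direction there under any alternative, and 0 members were called between KO and WT under normoxia and for the interaction under each. For the WT response (9 called), the count stayed within 1.5 times with the RLE, DESeq2, TMM without immunoglobulin genes, no-filter and 1 CPM settings, but fell to 4 with the compared groups alone, to 0 with the fold threshold of 1.5 (3 at an unadjusted p below 0.05) and to 0 without the Y-linked libraries (5). For the KO response (8 called), it fell to 4 with no filter on low counts, to 0 with the fold threshold (3) and to 5 without the Y-linked libraries. For KO against WT under hypoxia (2 called), it was 1 with the compared groups alone, 0 with the fold threshold (1) and 0 without the Y-linked libraries (9), all by edgeR. The last setting and scaling to the summed V counts were chosen after seeing the data. The shares of all genes called under these settings are not given here, so a loss among the members alone cannot be told from a general one. The cause of these changes was not tested. With the replicate block, 12 WT and 13 KO response calls and 4 calls of KO against WT under hypoxia were made, and all but Igkv14-118-2 of the main calls were among them. The block added Igkv1-88, Igkv17-121, Igkv17-127, Igkv9-129 and Iglv3 to the KO response and Igkv1-117 and Igkv10-96 to KO against WT under hypoxia, where the numbers did not pair libraries by the check. DESeq2 added Igkv3-2 in WT, Igkv17-127 and Igkv9-129 in KO and Igkv10-96 between genotypes under hypoxia.

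Leaving out 1 library gave 2 to 9 WT response calls, 2 to 11 KO response calls and 1 to 3 calls of KO against WT under hypoxia. It gave lambda shares of 21.8 to 22.8 in WT normoxia, 19.1 to 21.8 in WT hypoxia, 24.8 to 27.9 in KO normoxia and 27.2 to 30.2 in KO hypoxia (percent), summed kappa levels of 1077 to 1134 in WT normoxia, 1120 to 1210 in WT hypoxia, 1046 to 1092 in KO normoxia and 1031 to 1127 in KO hypoxia (CPM), and summed lambda levels of 313 to 323 in WT normoxia, 280.4 to 321 in WT hypoxia, 361 to 405 in KO normoxia and 417 to 446 in KO hypoxia (CPM). The Igkv1 share in KO hypoxia moved to 19.4% among segments of 500 or more counts and to 19.6% without pseudogenes, from 19.2%. Depth limits the 38 members with fewest counts (138 to 1419 summed), where the median standard error of the WT log2 fold change was 0.32, against 0.13 in the 38 with most.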
